A study of Homo sapiens with 7 samples.

Results

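The regions described here are stretches of the genome that held a HOXB13-K13ac peak in replicates 1 and 2 and none in replicate 3, and that shared no base with a replicate 2 peak called against IgG. Such a peak, at which the replicate 2 HOXB13-K13ac library exceeded the IgG control, is called a ChIP-over-IgG peak here, and it is not a peak of an IgG library. Peaks of the 3 replicate lists were merged at an overlap of 1 bp or more. Of the 65675 merged regions, 18275 (27.8%) met this rule, and they made up 68.3% of the 26760 regions with peaks of both replicates 1 and 2. ChIP-over-IgG peaks were used with no limit on q. With only those at a q of 0.05 or less, 21552 regions met the rule. Most regions of replicates 1 and 2 with a ChIP-over-IgG peak and no replicate 3 peak therefore held none at that q. The regions were chosen by the presence of peaks in the lists of replicates 1, 2 and 3 and of replicate 2 against IgG, with no limit of their own on enrichment or significance, so presence or absence in those lists is not a result. They held 20665 of the 41303 replicate 1 peaks and 19194 of the 45216 replicate 2 peaks. All 18275 regions enter the descriptions below, with no filter on low values.

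The study precipitated chromatin of C4-2B, a line derived from LNCaP prostate cancer cells that grows without androgen, with an antibody against the transcription factor HOXB13 carrying an acetyl group on lysine 13. The groups are 3 HOXB13-K13ac precipitations, 2 IgG precipitations made with a non-specific antibody, and 2 inputs of chromatin that was not precipitated. All 7 libraries come from this 1 line, grown in DMEM with charcoal-stripped fetal bovine serum, from which steroids are largely removed, and no further treatment is named. The title of replicate 1 begins with 2898 and those of replicates 2 and 3 with 3047, and what these prefixes mean is not stated. Separate cultures are not stated either. The library names within the names of the replicate 1 and replicate 3 lists differ by 1 punctuation mark, on which their assignment rests. A further HOXB13-K13ac list, called against input, carries a name that no label ties to a library, and it is called the unassigned list here.

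HOXB13 is a homeodomain protein of the posterior HOX group that marks the prostate lineage. It binds DNA together with cofactors of the MEIS family and can share sites with the androgen receptor. Acetylated lysines are a modification that bromodomain proteins can recognise, and dense groups of factor-bound sites are a feature of enhancers. The lists give positions on hg19. No genome or gene annotation of that build was used here, so the regions are named by position, no gene or sequence is attached to them, and the cell type could not be checked against marker genes.

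In a ChIP-seq list the fold enrichment compares the fragments stacked over a peak's summit, its highest point, with the local background. The replicate 1 list does not name its control, and the lists of replicate 2, replicate 3 and the unassigned peaks were called against input. Each replicate is 1 list, and regions are not replicates of a condition, so no p-value is given. The intervals below are exact 95% binomial intervals, cover counting error only, and treat neighbouring regions as independent.

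The regions were of moderate enrichment. The fold enrichment in replicate 1 had a median of 4.75, with an interquartile range of 3.66 to 6.65 and a highest value of 25.1. In replicate 2 the median was 7.53, with an interquartile range of 5.74 to 10.3 and a highest value of 49.8. Where a region held several peaks of a library, its highest value was taken. Both libraries reached 5 or more on the −log10 q scale in 13965 regions (76.4%), against 83.5% of all regions of replicates 1 and 2. Only replicate 1 reached that value in 1959 regions (10.7%), only replicate 2 in 1519 (8.31%), and neither in 832 (4.55%). A fold enrichment of at least 10 in both libraries was found in 993 regions (5.43%).

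The 3 other classes of regions with peaks in replicates 1 and 2 had higher medians. The 18275 regions had a median of 4.75 in replicate 1 and 7.53 in replicate 2. The 3894 regions of replicates 1 and 2 with a ChIP-over-IgG peak had medians of 8.66 and 17.1, in the same order. The 2222 regions of all 3 replicates without a ChIP-over-IgG peak had 8.58 and 12.05, and the 2369 of all 3 replicates with a ChIP-over-IgG peak had 12.3 and 22.9. The interquartile ranges of replicate 1 were 3.66 to 6.65 in the regions of replicates 1 and 2 only and 6.17 to 11.6 in those of all 3 without a ChIP-over-IgG peak, so the classes overlapped. These values come from the lists that set the classes and are a description.

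**Figure D1:**
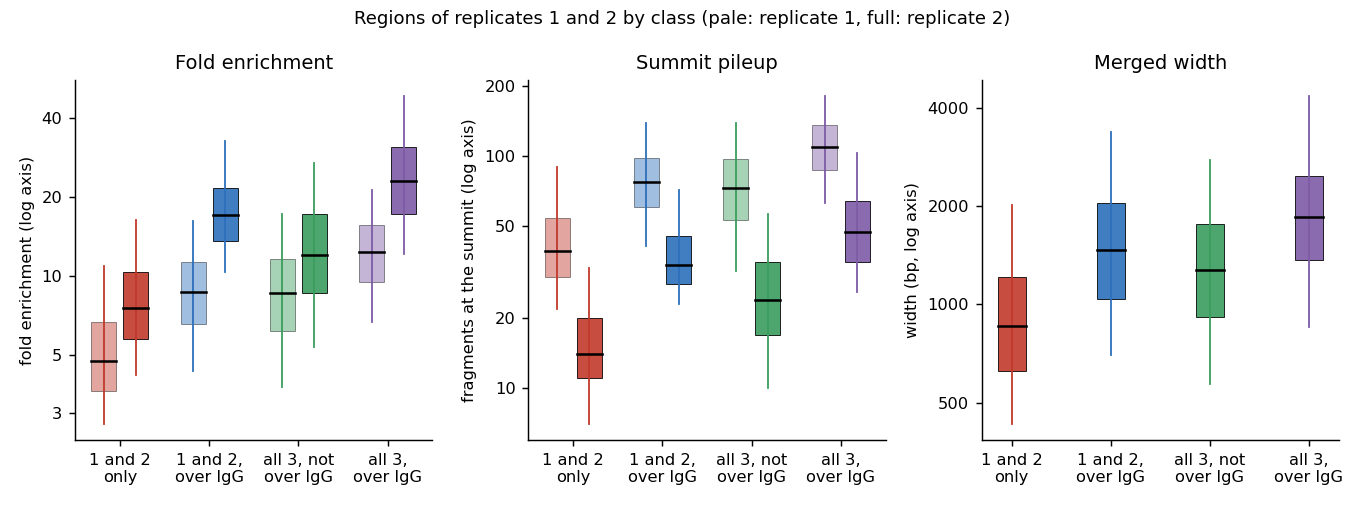
Fold enrichment, fragments at the summit and merged width (all log axes) for the 4 classes of regions with peaks of replicates 1 and 2 (over IgG: with a ChIP-over-IgG peak); black lines are medians, boxes interquartile ranges and thin lines the 5th to 95th percentiles. The class of replicates 1 and 2 only, at the left of each panel, has the lowest medians, and its ranges overlap those of the other 3 classes.

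The number of fragments behind these values could be worked out from the lists. In a peak called from a Poisson background, fold enrichment and p are both set by the fragments at the summit and the local background. A whole number of fragments gave both deposited values, within 0.0005 on the −log10 p, for 45212 of 45212 replicate 2 peaks, 36205 of 36205 unassigned peaks and 18232 of 18232 replicate 3 peaks. For replicate 1 this held for 0.165% of peaks, and for 41302 of 41302 once the pileup was multiplied by 0.969, a factor found from the list. The total reads of a library remain unknown.

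The regions rested on few fragments in replicate 2. Their summits held a median of 39 fragments in replicate 1 (interquartile range 30 to 54, 18233 regions with a single solution). In replicate 2 the median was 14 (11 to 20, 18231 regions), and the lowest was 4. The regions of all 3 replicates without a ChIP-over-IgG peak held a median of 73 fragments in replicate 1 and 24 in replicate 2, while replicate 3 had 7. Over whole lists, the median at the summit was 38 fragments for replicate 1, 16 for the unassigned list, 12 for replicate 2 and 6 for replicate 3. The lowest local background of each list fell in the same order, at 4.31, 0.997, 0.644 and 0.364 fragments. Called against IgG, replicate 3 had 1 peak and replicate 2 had 7506. The part of these differences between lists in the absence of replicate 3 peaks was not tested.

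Enrichment in the 2 libraries was related across regions, with wide scatter. Spearman's rho between the fold enrichments was 0.53 over 18275 regions, and 0.68 between the fragments at the summits over 18189. The regions share both libraries, and the correlation is a description. In the other classes rho between the fold enrichments was 0.48 (with a ChIP-over-IgG peak), 0.59 (all 3 replicates, no ChIP-over-IgG peak) and 0.52 (all 3 replicates, ChIP-over-IgG peak). The median ratio of replicate 2 over replicate 1 was 1.57, with an interquartile range of 1.19 to 2.03. Replicate 2 was below replicate 1 in 2477 regions (13.6%) and over 3 times as high in 826 (4.52%).

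**Figure D2:**
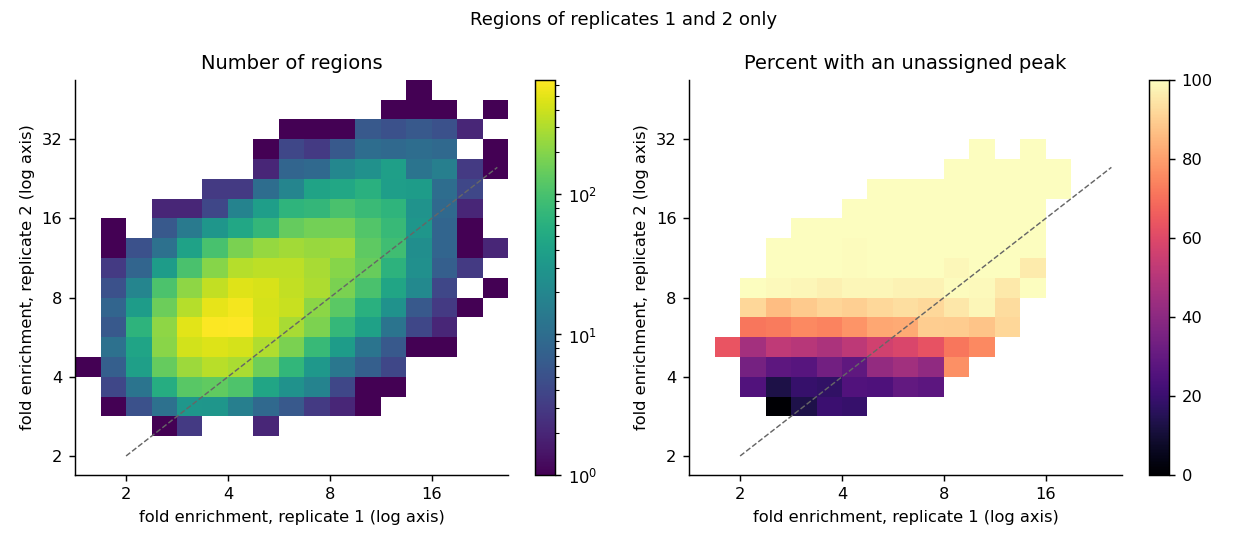
Regions of replicates 1 and 2 only, placed by fold enrichment in replicate 1 and replicate 2 (log axes, dashed line at equal values); colour is the number of regions (left, log scale) or the percentage with a peak of the unassigned list (right, squares of at least 10 regions). Colour on the right changes mainly from bottom to top, along the axis of replicate 2.

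The regions were narrower than the 3 other classes with peaks of replicates 1 and 2, and wider than regions of 1 replicate alone. Median widths were 351 bp for replicate 1 alone and 413 bp for replicate 2 alone. A region joins at least 1 peak of each of its replicates, so the comparison with these is partly set by the rule. In the regions of replicates 1 and 2 only, merged width had a median of 856 bp, an interquartile range of 626 to 1216 bp and a maximum of 8186 bp. Of these regions, 947 (5.18%) were wider than 2 kb. In the regions with a ChIP-over-IgG peak 26.0% were wider than 2 kb, and in those of all 3 replicates without a ChIP-over-IgG peak 16.3%. Peaks of replicate 2 were mostly the wider ones, with a median of 735 bp against 568 bp in replicate 1, and in 70.6% of regions the replicate 2 peak exceeded the replicate 1 peak. Most regions, 15463 (84.6%), consisted of 1 peak of each library. A further 1932 (10.6%) had several peaks of replicate 1 under 1 peak of replicate 2. The opposite arrangement was seen in 633 (3.46%), and 247 (1.35%) had several peaks of both.

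The summits of replicates 1 and 2 lay a median of 86 bp apart, with an interquartile range of 37 to 189 bp. They were within 100 bp in 10143 regions (55.5%, interval 54.8 to 56.2), against 57.9% of all regions of replicates 1 and 2. Within 500 bp the share was 93.3%.

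The unassigned list did not enter the rule and gave a separate readout. It had a peak in 14827 of the 18275 regions (81.1%, interval 80.6 to 81.7), against 45.5% of all merged regions and 87.1% of all regions of replicates 1 and 2. Counting only unassigned peaks at 5 or more on the −log10 q scale, the share was 65.7%, against 34.9% of all merged regions. The regions of replicates 1 and 2 with a ChIP-over-IgG peak had an unassigned peak in 99.97% of cases, and those of all 3 replicates without a ChIP-over-IgG peak in 99.3%. Regions of replicate 2 alone had one in 29.5% and regions of replicate 1 alone in 4.86%. Replicate 2 and the unassigned list were both called against input, while the replicate 1 list names no control. Regions of replicate 2 alone and of replicate 1 alone were also narrower, with median widths of 413 bp and 351 bp, against 856 bp. The part of the control and of width in the last 2 shares was not tested. The sources do not say whether the unassigned list shares a library with replicate 2, so its recurrence is not counted as a further replicate.

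Recurrence in the unassigned list was more frequent at higher enrichment in replicate 2. With the regions sorted by replicate 2 fold enrichment into 10 groups of like size, it was 27.4% in the lowest group, 65.8% in group 3, 88.9% in group 5 and 98.5% in group 7. In the highest group, at a fold enrichment of 13.6 or more, all 1827 regions had an unassigned peak. Along replicate 1 the shares spanned a narrower range. The share was 63.6% in regions with a replicate 1 fold enrichment below 3 and 98.6% at 10 or more.

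Setting both values side by side gave the same picture. Among regions with a replicate 2 fold enrichment below 6, the share was 42.2% of 2809 where replicate 1 was below 4 and 64.8% of 511 where replicate 1 was 6 or more. Among regions with a replicate 1 value below 4, it was 42.2% where replicate 2 was below 6 and 99.4% of 787 where replicate 2 was 9 or more. Of the regions that reached a −log10 q of 5 in replicate 1 alone, 35.1% of 1959 had an unassigned peak. Of those that reached it in replicate 2 alone, 1140 of 1519 had one. Where neither reached it the share was 27.3% of 832.

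At like replicate 2 enrichment, up to a fold enrichment of 10, a replicate 1 peak went with more frequent recurrence. For a fold enrichment of 4 to 5 in replicate 2, the share was 37.2% (interval 35.1 to 39.3) in the regions of replicates 1 and 2 only and 16.6% (15.7 to 17.6) in regions of replicate 2 alone. For 5 to 6 it was 62.4% (60.4 to 64.3) and 44.4% (42.6 to 46.2), and for 6 to 7 it was 82.7% (81.3 to 84.1) and 68.9% (66.6 to 71.2). From 8 to 10 the shares were 98.3% and 94.5%. Regions of all 3 replicates without a ChIP-over-IgG peak were higher than both at 4 to 5, with 85.7% of 63 (74.6 to 93.3). Within a step the classes differed slightly in strength, for example a median of 8 and 7 fragments in replicate 2 at 4 to 5. They also differed in width. Over all steps the median was 856 bp in the regions of replicates 1 and 2 only and 413 bp in those of replicate 2 alone. A wider region can more readily share a base with an unassigned peak, and the part of width in these shares was not tested.

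**Figure D3:**
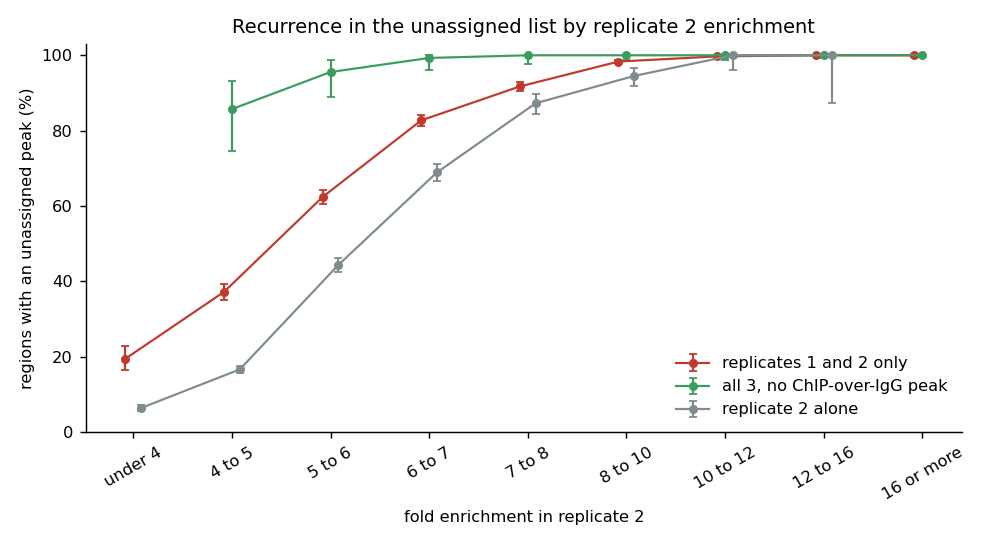
Percentage of regions with a peak of the unassigned list, by fold enrichment in replicate 2, for 3 classes of regions; bars are exact 95% binomial intervals, and points of fewer than 20 regions are left out. Between 4 and 7 the regions of replicates 1 and 2 only lie between those of all 3 replicates and those of replicate 2 alone, and from 10 upward all 3 classes are near 100%.

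Where the unassigned list had a peak, its values followed replicate 2 more closely than replicate 1. Its fold enrichment in these 14827 regions had a median of 6.47 (interquartile range 5.11 to 8.45) and its summits held a median of 16 fragments. Spearman's rho with the fold enrichment was 0.89 for replicate 2 and 0.51 for replicate 1. The unassigned summit lay within 100 bp of the replicate 2 summit in 83.1% of regions (interval 82.5 to 83.7) and within 100 bp of the replicate 1 summit in 58.4% (57.6 to 59.2). The median distances were 35 bp and 76 bp. The other classes showed the same order. Their shares within 100 bp of replicate 2 and of replicate 1 were 88.7% and 66.4% in regions of replicates 1 and 2 with a ChIP-over-IgG peak. They were 80.1% and 66.3% in regions of all 3 replicates without such a peak, and 86.8% and 67.8% in those with one.

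**Figure D4:**
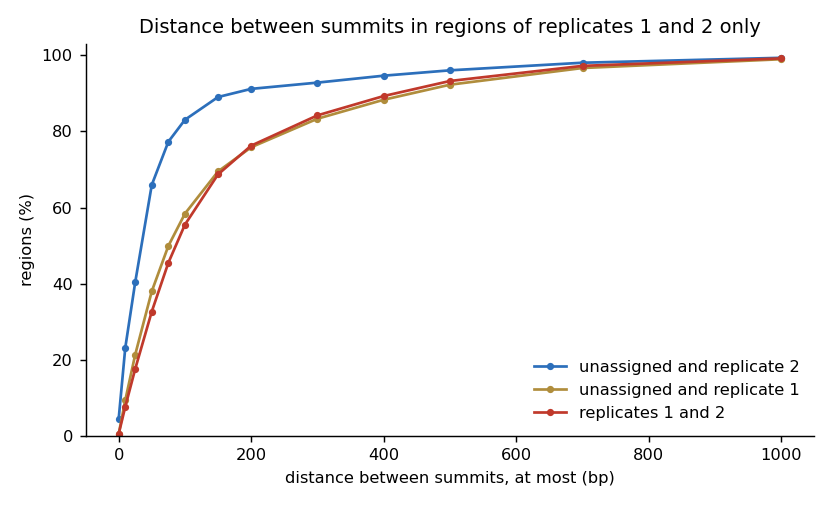
Cumulative percentage of regions of replicates 1 and 2 only whose summits lie within a given distance, for 3 pairs of lists; pairs with the unassigned list cover the 14827 regions where it has a peak. At 50 bp the curve of the unassigned list and replicate 2 is at 66.0%, that of the unassigned list and replicate 1 at 38.0%, and that of replicates 1 and 2 at 32.7%.

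The regions with the highest enrichment in both libraries were ranked by the lower of their 2 fold enrichments. The first, on chromosome 14 (24024957 to 24026259), had a fold enrichment of 24.5 in replicate 1 from 153 fragments and of 24.9 in replicate 2 from 43 fragments. The unassigned list had 16.9 there, and the nearest replicate 3 peak was 3749 bp away. The next, on chromosome 2 from 216072216 to 216074209, had 23.2 in replicate 1 and 41.4 in replicate 2, with summits 14 bp apart. Its unassigned value was 30.04, and its nearest ChIP-over-IgG peak lay 570 bp away. A region on chromosome 2 from 25015381 to 25017068 had 22.9 and 31.5, and held the highest replicate 1 pileup of the 12 top regions, 188 fragments.

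Some of the strongest regions bordered regions of the other classes. The region on chromosome 2 from 20549524 to 20550624, with 21.01 in replicate 1 and 32.8 in replicate 2, lay 172 bp from a replicate 3 peak and 136 bp from a region of another class. On chromosome 19 the region from 18392777 to 18393762, with 20.1 and 33.5, lay 486 bp from a replicate 3 peak. The region on chromosome 2 from 219260129 to 219264382, with 20.8 and 25.7, lay 379 bp from a ChIP-over-IgG peak. At these 3 places the absence of a shared base rests on a gap shorter than the width of the region itself.

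Chromosome 19 held 4 of the 12 top regions, and chromosome 2 held more. Of all 18275 regions, 936 lay on chromosome 19 and 1454 on chromosome 2. Besides the one above, those on chromosome 19 spanned 42363775 to 42365333, 6372249 to 6373418 and 10216962 to 10218267. Their replicate 1 fold enrichments were 20.8, 20.3 and 20.2 in that order. The 3 of the 12 not named so far lay on chromosome 1 (167904339 to 167906897 and 45096820 to 45098115) and chromosome 2 (55843869 to 55844881). Over all 12, replicate 1 spanned fold enrichments of 19.2 to 24.5 and replicate 2 those of 19.96 to 41.4. The unassigned list spanned 12.2 to 30.04. All 12 had an unassigned peak whose summit lay at most 45 bp from that of replicate 2.

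Of the 993 regions with a fold enrichment of at least 10 in both libraries, 992 had an unassigned peak. The exception, named after its values were seen, lay on chromosome 16 from 11349334 to 11350050. It had 14.4 in replicate 1 from 96 fragments and 10.7 in replicate 2 from 23 fragments, with summits 18 bp apart. The nearest unassigned peak was 40015 bp away.

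The widest regions were of varied strength. The widest, on chromosome 11 from 118789241 to 118797426, was a single replicate 2 peak of 8163 bp over 2 replicate 1 peaks, with fold enrichments of 17.7 in replicate 1 and 28.4 in replicate 2 and 5 unassigned peaks. A region of 6692 bp on chromosome 6, from 111196011 to 111202702, joined 5 peaks of replicate 1 and 3 of replicate 2, with 14.2 and 42.0. On chromosome 16 a single replicate 1 peak covered all 6544 bp from 1475561 to 1482104, at 6.79, while replicate 2 had 2 peaks and reached 13.8. The region on chromosome 3 from 66521648 to 66527548 reached 4.32 and 11.4, with its strongest summits 2790 bp apart. The region on chromosome X from 106964823 to 106970645 had 9.38 and 13.99. The last of these lay 165328 bp from the nearest replicate 3 peak, while the first lay 1709 bp from one.

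Many of the regions had close neighbours. Another region of the same class lay within 10 kb of 8992 of them (49.2%) and within 1 kb of 5950 (32.6%). Regions that share no base count as separate, and the lower quartile of the distance to the nearest other one was 334 bp. With peaks merged up to 500 bp apart, 13707 regions met the rule in place of 18275. The wider merge joins close regions and also changes which regions meet the rule, and the 2 were not counted apart. Like shares were not worked out for all merged regions or the other classes, so closeness is not called particular to these regions. A region of another class with peaks of replicates 1 and 2 lay within 10 kb of 4343 (23.8%). At the other end, 1528 (8.36%) were more than 100 kb from any region with peaks of both replicates. These isolated regions had a median width of 810.5 bp and median fold enrichments of 4.63 in replicate 1 and 6.9997 in replicate 2, and 74.0% (interval 71.7 to 76.1) had an unassigned peak. Those within 10 kb of another class had a median width of 874 bp and medians of 4.80 in replicate 1 and 7.74 in replicate 2, and 83.9% (82.8 to 85.0) had one. The remaining 12404 had a median width of 855.5 bp and medians of 4.76 in replicate 1 and 7.55 in replicate 2, and 81.1% (80.4 to 81.7) had one. The order of the 3 shares was that of the median widths and of the medians of both replicates. The part of each in it was not tested.

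Joined at gaps of at most 10 kb, the regions formed 3674 runs of 2 or more, of which 138 held 5 or more, with 847 regions (4.63%) in those. Regions less than 500 bp apart count separately in these runs. The longest run, of 18 regions in 66.2 kb, lay on chromosome 2 from 189143193 to 189209380. Its fold enrichments were 1.87 to 6.93 for replicate 1 and 3.52 to 12.2 for replicate 2. The stretch held 31 merged regions in all, among them 8 of replicate 2 alone and 1 with a replicate 3 peak, and 13 of the 18 regions had an unassigned peak. Within it, the region from 189172324 to 189173814 had the lowest replicate 1 value, 1.87, beside 10.3 in replicate 2 and 8.51 in the unassigned list. The region from 189183177 to 189184171 had the highest replicate 2 value, 12.2, beside 6.28 in replicate 1.

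Chromosome 12 held the next 2 runs. One, of 16 regions from 81937787 to 81998023, had a strongest region in replicate 2 (81981426 to 81982504) with 16.4, beside 5.37 in replicate 1 and 12.5 in the unassigned list. Another, of 14 regions from 64943582 to 64996218, had values of 2.16 to 7.25 for replicate 1 and 4.12 to 12.2 for replicate 2. A run of 13 regions lay on chromosome 21 from 17674974 to 17714416, and 8 of them had an unassigned peak. The longest of 3 runs of 11 regions, on chromosome 15 from 89630644 to 89683824, had an unassigned peak in all 11, and its highest values were 7.76 in replicate 1 and 19.3 in replicate 2, both in the region from 89671082 to 89673044. In none of these 5 runs did a region reach a fold enrichment of 10 in replicate 1, and the 12 top regions lay in other places.

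The density of the regions differed between chromosomes. It was 6.09 per Mb over the span between the first and last peak of any list, and the regions covered 18.2 Mb, or 0.606% of that span. Chromosome 19 had 15.9 per Mb, chromosome 22 had 12.6 and chromosome 17 had 10.9. The lowest autosomal densities were 3.95 on chromosome 13 and 4.12 on chromosome 4. Merged regions of any class numbered 65675 over 2999 Mb. Chromosome 19 held 2580 of them in 58.8 Mb, chromosome 22 held 1570 in 34.1 Mb and chromosome 17 held 3034 in 81.1 Mb. Their densities were not worked out, so high density there is not called particular to the regions described here. The order by share was different. The share over all chromosomes was 68.3%. The regions made up 60.4% (interval 56.8 to 64.1) of the regions of replicates 1 and 2 on chromosome 22, 61.8% (59.2 to 64.3) on chromosome 17 and 63.3% (60.8 to 65.7) on chromosome 19. They made up 77.8% (75.8 to 79.6) on chromosome 2, 76.8% (74.0 to 79.3) on chromosome 4 and 82.7% (79.9 to 85.3) on chromosome X.

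Chromosome X, where the share was highest, had the lowest recurrence among chromosomes with more than 1 of these regions. Of its 661 regions, 478 (72.3%, interval 68.7 to 75.7) had an unassigned peak, while the autosomes ranged from 77.1% on chromosome 6 to 85.4% on chromosome 19. Its median fold enrichments were 5.46 in replicate 1 and 7.91 in replicate 2, against 4.75 and 7.53 over all the regions. Its median width was lower, 792 bp against 856 bp. The part of enrichment and of width in its recurrence was not tested.

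**Figure D5:**
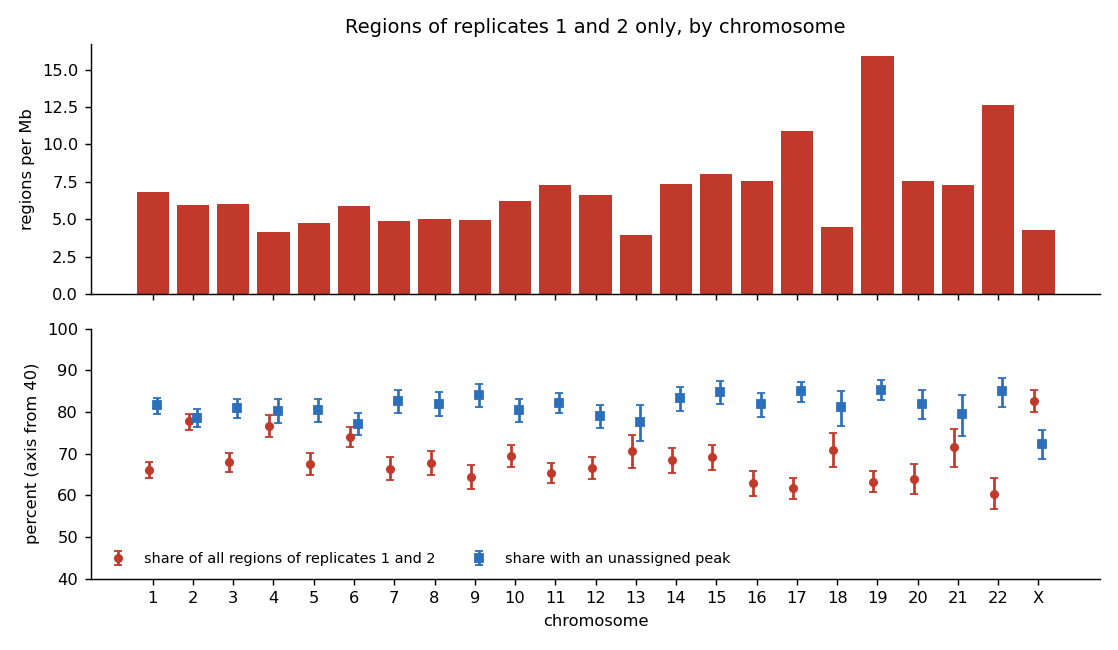
Regions of replicates 1 and 2 only by chromosome: number per Mb (top), and percentages (bottom, axis from 40) of all regions of replicates 1 and 2 and of those with an unassigned peak, with exact 95% binomial intervals. Chromosomes 19, 22 and 17 have the highest densities; chromosome X has the highest share, 82.7%, and the lowest recurrence, 72.3%. Chromosome Y, with 1 region, is left out.

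Chromosomes 8 and Y are left out of the values at the edge of the rule. The region nearest to a replicate 3 peak without sharing a base lay on chromosome 17 from 19281695 to 19282552, 2 bp from it, with 5.47 in replicate 1 and 7.55 in replicate 2. On chromosome 17 the region from 21104577 to 21105471 shared 5 bp with a replicate 3 peak and was left out, with 2.97 and 4.19. The 15 regions 50 bp or less from a replicate 3 peak had medians of 4.55 and 7.55, and the 21 left out for sharing 50 bp or less had 6.53 and 9.75. These are descriptions of few regions. On all chromosomes, 1092 regions (5.98%) lay within 1 kb of a replicate 3 peak and 1344 (7.35%) within 1 kb of a ChIP-over-IgG peak. The nearest to a ChIP-over-IgG peak was 98 bp away, on chromosome 1 from 28156466 to 28157253, with 8.13 and 11.4. Among the regions left out for a ChIP-over-IgG peak, the shortest overlap was 235 bp. That is also the lowest width of a replicate 2 peak called against input in the regions described here. Whether the shortest overlaps are whole ChIP-over-IgG peaks was not worked out. The 12396 regions (67.8%) more than 10 kb from every replicate 3 and ChIP-over-IgG peak had an unassigned peak in 80.1% of cases (interval 79.4 to 80.8).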

How the data were processed

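Per the labels' protocols, chromatin of C4-2B cells was fixed with formaldehyde, sheared by sonication, precipitated, and sequenced on an Illumina HiSeq instrument. The submitters' processing notes name MACS2, Bowtie2, BWA and CASAVA 1.4, and the builds hg19 and GRCh37. For the calling threshold and the filter applied, the sources used here give nothing. The 6 lists, as deposited by the authors, give each peak a fold enrichment (a ratio to local background), a −log10 p and a −log10 q. A list was tied to a library by its spelling in the labels, in which replicates 1 and 3 differ by 1 punctuation mark. Positions count from 1.

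Merging and overlaps were computed with Python 3.11.15, NumPy 2.4.6 and pandas 2.3.3, and intervals with SciPy 1.17.1. The number of regions and the number with an unassigned peak equalled those of bedtools 2.31.1. The code was tested on simulated lists. For the fragments at the summit, y, and the local background, fold was taken as (y + 1)/(background + 1) and p as the Poisson chance of more than y fragments. Peaks with a −log10 p over 290 or several solutions were left out. Library depths are not given.

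The rule, the lists and the comparisons were chosen with earlier results of these data known. Regions named are the 12 with the highest lower-of-2 fold enrichment, the 5 widest, the 5 runs with the most regions and those at the edge of the rule, with chromosomes 8 and Y passed over. Position relative to genes, motifs and gene lists were planned and not analysed here, because no hg19 genome or annotation was used.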

Additional observations from a re-analysis of the deposited data

How the results depend on the processing

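The number of regions, 18275, was 11360 when summits had to lie within 100 bp. It was 18125 with a share of 0.5 of both widths, 13976 with a −log10 q minimum of 5, 21552 when only replicate 2 peaks called against IgG with a q of 0.05 or less removed a region, and 13707 with peaks merged up to 500 bp apart. When 1 replicate was left out of the rule it ranged from 20499 (without replicate 3) to 36499 (without replicate 1). The share with an unassigned peak, 81.1%, was 87.2%, 84.4%, 91.4%, 84% and 81.9% under a share of 0.5 of both widths, summits within 100 bp, the q minimum, the q limit on peaks called against IgG and the wider merge, in that order. With the same minimum for unassigned peaks it was 65.7%. It ranged from 56.8% without replicate 1 to 83.1% without replicate 3. The rule asks for less when a replicate is left out, and fewer peaks enter under the q minimum. Under the q limit on peaks called against IgG, the added regions come from those of replicates 1 and 2 with a ChIP-over-IgG peak. Of that class, 99.97% had an unassigned peak. For the other settings the cause was not tested. No paired analysis was possible because the values come from no test between groups, and the IgG and input libraries have no list of their own here. With a median of 14 fragments at the summit in replicate 2, counting error is large for single regions.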
